A study of Mus musculus with 6 samples.

Results

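The 10 genes described here are known markers of pyramidal neurons in fields CA3 and CA2 of the hippocampus: Nptx1, Coch, Bok, Iyd, Socs2, Tspan18, Cpne4, Amigo2, Rgs14 and Map3k15. They were taken by name from the platform annotation, and each gene was represented by the brightest array row that named it and no other gene. All 10 were found among 22180 genes with such a row. Socs2 had 2 rows and each of the others had 1.

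Total RNA was measured on 6 Affymetrix whole-transcript arrays, 3 from ethanol-exposed and 3 from saline-injected C57BL/6J mice, an inbred laboratory strain. Ethanol was given under the skin at 2.5 g/kg in 0.15 M NaCl, as a pair of injections 2 hours apart on postnatal day 4 and again on day 7, and the controls were littermates injected with saline. Each array held RNA pooled from 3 mice, so an array value is an average over animals, and all 18 mice were male. The tissue was labelled as whole hippocampus. The labels disagree on age at collection, with 21 days in the sample characteristics and day 70 in the treatment protocol.

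CA3 pyramidal neurons receive the mossy fibres of the dentate gyrus, excite one another through recurrent collaterals and project to CA1. CA2 is a small field between CA3 and CA1, known for its role in social memory and for weak long-term potentiation, the lasting strengthening of synapses after strong input. The early postnatal days in rodents are a period of synapse formation in these fields, when ethanol is known to kill developing neurons.

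No difference between ethanol and saline passed the test in any of the 10 genes. For Iyd and Amigo2 all ethanol values lay below all saline values, with differences of -0.19 ± 0.08 and -0.11 ± 0.07 (log2 difference ± SE, 3 arrays against 3), and for Nptx1 they lay above, with 0.13 ± 0.07. The groups overlapped for the other 7 genes. Among all genes, 10.5% had groups without overlap. In 7 of the 10 genes the highest value lay on saline array 1, beside 21.2% of all genes.

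The labelled tissue was checked against marker lists. A level that genes absent from brain seldom exceed was taken from 1400 rows of olfactory and vomeronasal receptor genes, whose 95th percentile lay between 6.90 and 7.07 on the log2 scale over the 6 arrays. Of the 10 genes, 6 stood above this receptor level on all arrays, against 48.6% of all genes. Rgs14 stood above it on 5 arrays. Iyd, Cpne4 and Map3k15 stood below it on every array, so these defining markers were not distinguished from rows of genes that brain mostly lacks. Among 18 measured genes of a second list of 19 known from CA3 or CA2, 14 stood above it on all arrays, and Actn2, Avpr1b and Fgf2 stood below it on all, these being named after their values were seen.

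Of 23 markers of other hippocampal and forebrain neurons, 12 were above the receptor level on all arrays, beside 48.6% of all genes. Those of cerebellum were all above it. By list, 4 of 7 CA1 genes, 4 of 8 dentate gyrus genes and 4 of 8 telencephalic pyramidal neuron genes stood above it on all arrays. Wfs1 was the brightest CA1 gene, at 8.72, and Lmo3 the dimmest, at 5.97. In the dentate gyrus list these were Calb1, which Purkinje cells also make, at 12.28 and Tdo2 at 5.62, and in the telencephalic list Zbtb18 at 11.27 and Emx2 at 5.28. Of the 8 telencephalic genes, named in full after their values were seen, the transcription factors Neurod6, Emx1, Emx2 and Tbr1 were below the receptor level on every array. Slc17a7, a vesicular glutamate transporter that cerebellar granule cells also make, at 10.95, Camk2a at 9.76, Nrgn at 7.60 and Zbtb18 were above it on every array. All 5 Purkinje cell genes and all 8 cerebellar granule cell genes were above it on all arrays, from Car8 at 12.44 to Rora at 9.86 and from Gabra6 at 12.17 to Barhl1 at 7.45. Rows bind with different strength, so these values do not rank transcripts. List medians were 10.85 and 10.87 for Purkinje and granule cells, against 7.26, 6.99 and 7.18 for the CA1, dentate gyrus and telencephalic lists. The cerebellar levels go against RNA of hippocampus alone. What share of the RNA came from cerebellum was not tested. How much of each gene's signal came from CA3 or CA2 neurons was not tested, and in bulk RNA fewer cells of a type and less RNA per cell cannot be told apart.

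**Figure D1:**
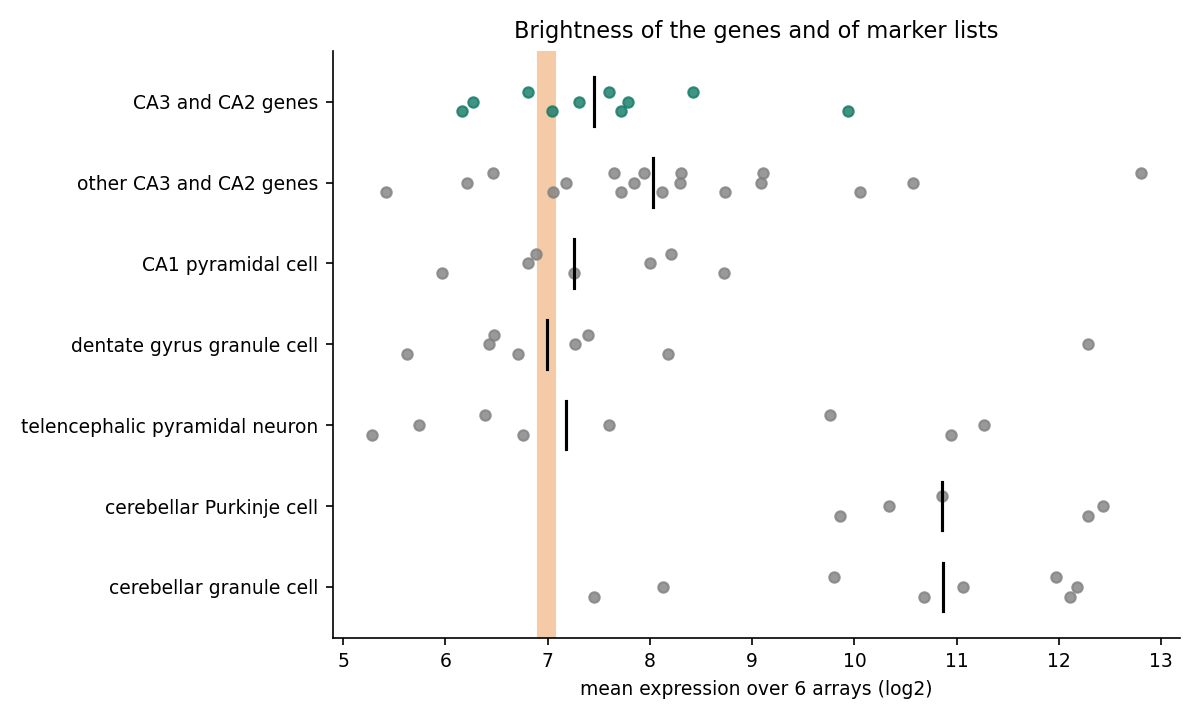
Mean log2 expression over the 6 arrays, 1 point per gene, for the 10 CA3 and CA2 genes (green) and 6 marker lists (grey), with a black bar at each list's median and an orange band spanning the receptor level of 6.90 to 7.07. The median was 7.45 over the 10 genes, 7.26 over CA1 genes, and 10.85 and 10.87 over the Purkinje and granule cell genes, all of which lie right of the band.

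Among the genes of CA3, Nptx1 encodes neuronal pentraxin 1, a secreted protein that gathers AMPA receptors at excitatory synapses (chr11:119538719-119547820 on mouse build GRCm38). It stood at 9.96, 10.04 and 10.01 on ethanol arrays 1 to 3 and at 9.93, 9.81 and 9.89 on saline arrays 1 to 3. All ethanol values were above all saline values, with a gap of 0.03 between the lowest ethanol and the highest saline array. The means were 10.003 ± 0.040 and 9.88 ± 0.07 (SD, n = 3), and the difference of 0.13 ± 0.07 had an adjusted p of 0.857 in limma. The value moved with the scaling between arrays, to 0.06 after quantile normalization, where the groups overlapped, to 0.05 after cyclic loess and to 0.17 after median centring, where they stayed apart in both. Its row was as bright as or brighter than 95.2% of rows naming 1 gene. Cerebellar markers were bright on the same arrays, and which cells gave the Nptx1 signal was not tested.

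Iyd encodes iodotyrosine deiodinase, which recovers iodide in the thyroid and serves in hippocampus as a CA3 marker (chr10:3540274-3554880). Its values were 6.20, 6.10 and 6.23 in ethanol and 6.41, 6.37 and 6.34 in saline. The groups were separated by 0.11, the widest gap among the 10 genes. The difference of -0.19 ± 0.08 is a fold of 0.874 with an unadjusted 95% interval from 0.773 to 0.989. Its unadjusted p was 0.0362 and its adjusted p 0.857 in limma, and it was the 1 gene of the 10 with an unadjusted p under 0.05, beside 5.54% of all rows and 3.18% of all genes. Under quantile normalization the difference was -0.15 with an unadjusted p of 0.0617 in limma, and leaving out 1 array gave unadjusted p-values from 0.0511 to 0.113. This row lay below the receptor level on all arrays, by up to 0.81.

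Amigo2, the other gene with lower ethanol values throughout, encodes a leucine-rich repeat adhesion molecule that marks CA2 and is also known from cerebellar granule neurons (chr15:97244074-97247287). It stood at 7.66, 7.63 and 7.70 in ethanol and at 7.81, 7.78 and 7.73 in saline. The gap between the groups was 0.03. Its spread within groups was among the smallest on the array, at 0.04 (pooled SD), with 3.33% of rows naming 1 gene as tight or tighter. The means were 7.67 ± 0.04 and 7.78 ± 0.04 (SD, n = 3), and the difference of -0.11 ± 0.07 had an adjusted p of 0.859 in limma. The group separation held under quantile normalization, median centring and cyclic loess, at -0.12, -0.07 and -0.12.

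Iyd and Amigo2 are the genes whose ethanol arrays all lay below the saline arrays, so the sequences just upstream of their start sites are shown side by side. Each run, written 5′ to 3′, holds the 250 bases before the start in RefSeq on GRCm38.p6, at chr10:3540024-3540273 on the plus strand for Iyd and chr15:97247288-97247537 on the minus strand for Amigo2. Capitals mark TATAAA, the core of a TATA box, and GGGCGG or its reverse complement CCGCCC, the core of a GC box.
Iyd: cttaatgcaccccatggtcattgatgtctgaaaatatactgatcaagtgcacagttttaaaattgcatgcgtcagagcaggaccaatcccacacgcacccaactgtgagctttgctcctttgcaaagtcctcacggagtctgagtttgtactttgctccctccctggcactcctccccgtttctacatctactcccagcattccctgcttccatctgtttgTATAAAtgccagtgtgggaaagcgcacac
Amigo2: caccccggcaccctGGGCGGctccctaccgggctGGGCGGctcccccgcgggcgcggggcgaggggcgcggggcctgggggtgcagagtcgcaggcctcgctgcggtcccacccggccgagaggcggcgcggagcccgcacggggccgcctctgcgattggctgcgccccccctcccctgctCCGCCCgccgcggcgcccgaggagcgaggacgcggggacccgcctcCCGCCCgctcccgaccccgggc

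The upstream sequences are unlike in composition. The Iyd window was 48.4% G or C with 5 CpG dinucleotides and held TATAAA starting 29 bases before the start site, whereas the Amigo2 window was 84.0% G or C with 38 CpG and held 4 GC-box cores and no TATAAA. Over 32851 windows of the same length in the RefSeq table the median was 52.4% G or C with 6 CpG. Of these windows, 12.4% held TATAAA on either strand and 7.59% held it on the same strand as in Iyd, at any position. On that strand, 1.84% held it in a short stretch around its position in Iyd. A GC-box core on either strand was held by 32.7%. The table held 5 of the 10 genes, in 6 windows. Of these, Amigo2, Bok, Coch and Cpne4 had a GC-box core and Iyd alone had TATAAA. These letter matches describe the windows and say nothing of a bound factor.

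Coch encodes cochlin, a secreted matrix protein best known from the inner ear (chr12:51593283-51606619). It stood at 7.22, 7.33 and 7.30 in ethanol and 7.42, 7.30 and 7.28 in saline. Saline array 1 was the highest and the other 5 arrays overlapped. The difference was -0.05 ± 0.08 (adjusted p = 0.926 in limma) and -0.01 without saline array 1.

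Bok encodes a member of the BCL-2 family of apoptosis regulators that is abundant in hippocampal neurons (chr1:93685575-93695770). The values were 7.80, 7.79 and 7.84 in ethanol and 7.87, 7.68 and 7.76 in saline. The ethanol arrays lay within the saline range, with an SD of 0.02 against 0.10. The difference of 0.04 ± 0.08 had an adjusted p of 0.948 in limma, with an unadjusted 95% interval from -0.15 to 0.23.

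Socs2 encodes a suppressor of cytokine signalling that restrains growth hormone signalling (chr10:95383903-95417321). Its brighter row stood at 7.42, 7.60 and 7.55 in ethanol and 7.75, 7.58 and 7.71 in saline. Ethanol array 2 passed saline array 2 by 0.01, so the groups overlapped. The difference was -0.16 ± 0.09 (adjusted p = 0.857 in limma). The dimmer row averaged 7.20 ± 0.05 on the ethanol and 7.14 ± 0.03 on the saline arrays (SD, n = 3) and had a difference of the opposite sign, 0.05 ± 0.07 (adjusted p = 0.914 in limma). The annotation does not say which part of the gene either row reads, and no direction can be given for Socs2.

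Tspan18 encodes a tetraspanin, a membrane scaffold protein (chr2:93201760-93334551). It was the most variable of the 10 genes, at 8.66, 8.26 and 8.56 in ethanol and 8.51, 8.03 and 8.52 in saline. The lowest array in each group was array 2. Its pooled SD of 0.25 was as large as or larger than that of 95.3% of rows naming 1 gene. The difference of 0.14 ± 0.17 had an adjusted p of 0.904 in limma, and leaving out saline array 2 turned it to -0.02.

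Cpne4 encodes a copine, a calcium-dependent membrane-binding protein (chr9:104566701-105034544). It stood at 6.20, 6.23 and 6.11 in ethanol and 6.34, 6.07 and 6.00 in saline. Saline array 1 was above all ethanol arrays and the other saline arrays were below them. The difference was 0.04 ± 0.11 (adjusted p = 0.952 in limma), 0.14 without saline array 1 and -0.02 without saline array 3. The row was below the receptor level throughout.

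The remaining genes mark CA2. Rgs14 encodes a regulator of G protein signalling that limits long-term potentiation in CA2 neurons (chr13:55369732-55384687). It stood at 7.05, 7.00 and 6.99 in ethanol and 7.06, 7.11 and 7.04 in saline. The pools were close to one another, with a range of 0.13 over all arrays, the smallest of the 10 genes. The difference was -0.06 ± 0.07 with overlapping groups (adjusted p = 0.903 in limma).

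Map3k15 encodes a kinase at the head of a stress-activated MAP kinase cascade (chrX:159988204-160123346). It stood at 6.84, 6.84 and 6.81 in ethanol and 6.91, 6.75 and 6.73 in saline. The ethanol arrays lay between saline array 1 and the other saline arrays. The difference was 0.04 ± 0.08 (adjusted p = 0.945 in limma) and 0.09 without saline array 1.

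**Figure D2:**
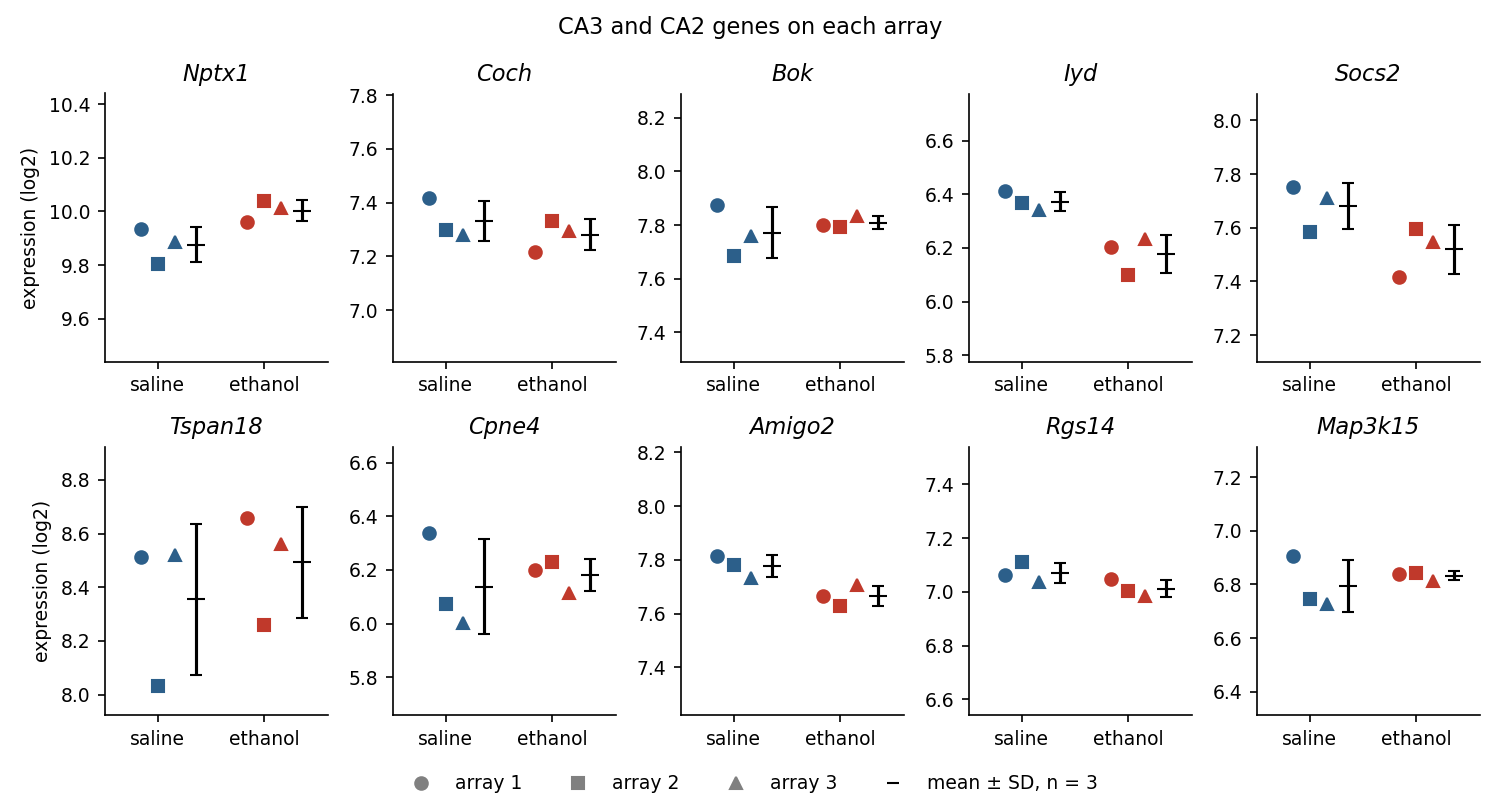
Log2 expression of each of the 10 genes on the 3 saline arrays (blue) and 3 ethanol arrays (red), with marker shapes for array numbers and black bars for the group mean ± SD (n = 3). Every vertical axis spans the same height on the log2 scale, and the groups separate for Nptx1, Iyd and Amigo2.

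Of the 10 genes, 5 had a higher mean in ethanol and 5 a lower mean, against 57.2% higher among all genes. The median difference over the 10 genes was -0.01, beside 0.02 over all genes. The limma test called 0 of the 10 genes and 0 of 41345 rows (percent called 0) at an adjusted p under 0.05, while 1 of the 10 and 2290 rows had an unadjusted p under 0.05. The groups did not overlap in 3 of the 10 genes, beside 11.1% of all rows and 10.5% of all genes at 1 row each. Ethanol was lower in 2 of these, beside 6.01% of all rows and 4.72% of all genes. It was higher in 1, beside 5.06% of all rows and 5.74% of all genes. With 3 arrays a group an exact permutation test of a single gene cannot go below 0.1. A p that misses the threshold does not show equal expression. Except for Tspan18, whose interval ran from 0.836 to 1.45, the unadjusted 95% intervals of the folds lay between 0.773 and 1.24.

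Medians of some marker lists of other cells also separated by group. The CA1 median was 7.15 ± 0.07 on the ethanol and 7.37 ± 0.08 on the saline arrays, and the telencephalic median 6.98 ± 0.07 and 7.38 ± 0.44 (SD, n = 3), both without overlap. The CA1 median was the value of Fibcd1, named after its values were seen, on every array. Fibcd1 was the 1 gene of 7 in that list whose groups did not overlap. Of the 8 telencephalic genes only Slc17a7 had groups without overlap, and it was higher in ethanol. The granule cell median was 10.910 to 10.913 on the ethanol arrays, barely above saline array 1 at 10.905, with 10.84 and 10.75 on saline arrays 2 and 3. Higher means in ethanol were found for all 5 oligodendrocyte and all 6 astrocyte genes, beside 57.2% of all genes. The astrocyte water channel Aqp4, named after its values were seen, was at 0.26 ± 0.07 without overlap. None of these genes passed the limma test (smallest adjusted p 0.857). Their part in the values of Iyd, Amigo2 and Nptx1 was not tested.

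**Figure D3:**
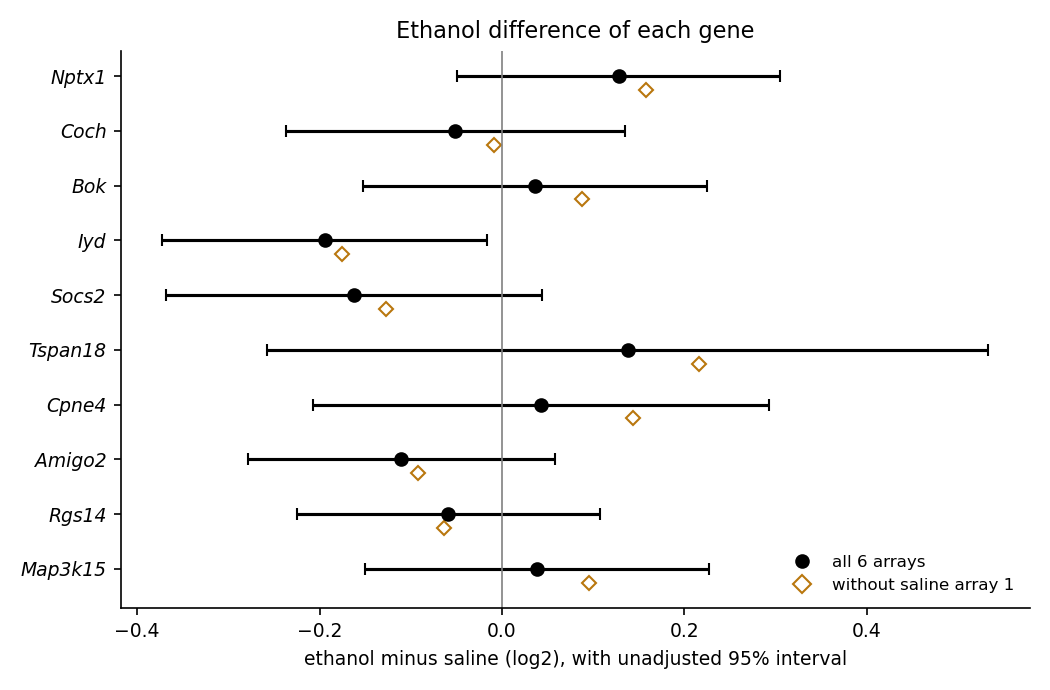
Ethanol minus saline on the log2 scale for each gene, with black points and unadjusted 95% intervals from limma on all 6 arrays and open diamonds for the fit without saline array 1. The interval of Iyd, from -0.37 to -0.02, leaves out 0, and those of the other 9 genes span it.

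Saline array 1 stood apart from the other controls. On the first principal component of all rows it scored -19.9, beside the ethanol arrays at -15.7, -19.1 and -1.59, against 32.6 and 23.7 for saline arrays 2 and 3. It held the highest value of Coch, Bok, Iyd, Socs2, Cpne4, Amigo2 and Map3k15, which is 7 of the 10 genes, beside 21.2% of all genes. It was above the 6-array mean for 9 of the 10, Nptx1 being the exception, beside 56.8% of all genes. The second CA3 and CA2 list had 8 of 18 genes highest there, the CA1 list 4 of 7, the dentate gyrus list 5 of 8 and the telencephalic list 3 of 8. The cerebellar lists had 2 of 5 and 3 of 8, the astrocyte list 0 of 6 and the oligodendrocyte list 0 of 5. The microglia list had 3 of 6.

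List medians did not all peak on this array. The CA1 median, again the value of Fibcd1, was 7.34 there and 7.46 on saline array 2. The dentate gyrus median was 7.13 there and at most 7.04 elsewhere. The telencephalic median, at 7.88 there and from 6.89 to 7.18 on the other 5 arrays, lies midway between Neurod6 and Nrgn on saline array 1 and so rests on Nrgn. Nrgn, a postsynaptic calmodulin-binding protein of forebrain neurons named after its values were seen, stood at 9.11 on saline array 1 and from 7.17 to 7.48 elsewhere. Camk2a, a postsynaptic kinase also named afterwards, stood at 10.16 there and from 9.58 to 9.75 elsewhere. On this array Zbtb18, Emx1 and Emx2 also stood above their means over the 6 arrays, at 11.41, 6.48 and 5.34. Neurod6, Tbr1 and Slc17a7 stood below theirs, at 6.66, 5.67 and 10.93. The cerebellar granule cell median was 10.91 on saline array 1 and on all 3 ethanol arrays, against 10.84 and 10.75 on saline arrays 2 and 3. The part of these markers in the 10 genes' values was not tested. Without saline array 1, limma called none of the 10 genes (smallest adjusted p 0.583, for Iyd), 5 had a higher and 5 a lower mean in ethanol, and the groups did not overlap in 6, beside 27.6% of all rows. Without ethanol array 2 they did not overlap in 5, beside 17.5% of all rows. Without saline array 1 the differences of Iyd, Amigo2 and Nptx1 were -0.18, -0.09 and 0.16.

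**Figure D4:**
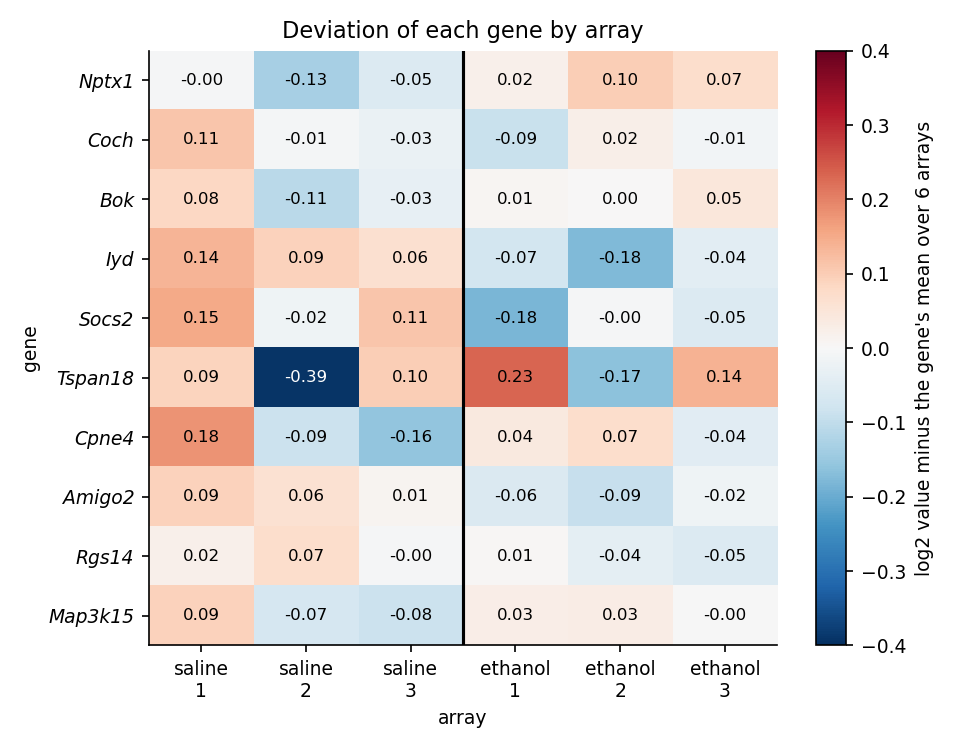
Each cell gives a gene's log2 value on 1 array minus its mean over the 6 arrays, in red above and blue below that mean, with the saline arrays left of the black line. The saline array 1 column is above 0 for 9 genes, beside 56.8% of all genes. The widest departure is Tspan18 on saline array 2, at -0.39.

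The second list of genes known from CA3 or CA2 also held no gene that passed the test. Of the 18 measured, 11 had a higher and 7 a lower mean in ethanol, limma called 0 and none had an unadjusted p under 0.05, and in none did the groups separate. The median difference was 0.03. The smallest p-values among higher means were those of Spock1, a secreted proteoglycan, at 0.23 ± 0.11 (adjusted p = 0.857 in limma), Necab2, a calcium-binding protein, at 0.13 ± 0.10, and Homer3, a postsynaptic scaffold, at 0.13 ± 0.10. Among lower means they were those of Actn2, an actin crosslinker of dendritic spines, at -0.17 ± 0.12, Plagl1, an imprinted zinc finger factor, at -0.07 ± 0.10, and Ptpn5, a striatal-enriched phosphatase also found in CA2, at -0.05 ± 0.08. The adjusted p of these 6 genes lay between 0.857 and 0.930 in limma. The brightest were Pcp4, a calmodulin-binding peptide of CA2 and of Purkinje cells, at 12.81, Homer3 at 10.58 and Spock1 at 10.06. Purkinje and granule cell markers were bright on the same arrays, and which cells gave the signals of this list was not tested. Pcp4 differed by 0.06 ± 0.09.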

How the data were processed

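Per the deposited table, the authors gave log2 values for 41345 rows on each of 6 arrays. The log2 scale was read from the values. Background correction, summarization and normalization are not given in the sources used here, so any compression of differences is unknown. The platform annotation tied 23521 rows to 1 gene and 1814 to several; 16010 were unnamed here, and rows with several genes were left out of naming. All 10 members matched RefSeq by Entrez identifier, and positions are those of that table.

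All rows were fitted together with lmFit and eBayes of limma 3.58.1 under R 4.3.3 (two-sided, without covariates or filters), with Benjamini-Hochberg adjustment over all rows and a threshold of 0.05. Intervals are unadjusted. The array was the replicate, so p-values measure the spread between pools of 3 mice, and their small number limits the precision. The fit was tested on simulated data. Members and lists were chosen with earlier results of these data known. All members were named; of the second CA3 and CA2 list, the 3 smallest p-values in each direction and the 3 brightest were named, and of marker lists the brightest and dimmest. Alternatives covered scaling, the limma prior, array weights, the array number as a block, a filter on dim rows, the row per gene and leaving out each array.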

Additional observations from a re-analysis of the deposited data

How the results depend on the processing

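No setting called any of the 10 genes or of the second CA3 and CA2 list. Quantile normalization, median centring, cyclic loess and array weights changed the estimates, and all 40 differences of the 10 genes kept their sign there. The prior, the replicate block and the filter leave the estimates as they are by construction, as does the row choice for all but Socs2, which was at 0.053 on its dimmer row. The filter to rows brighter than the median gave no value for Iyd and Cpne4. The number of the 10 genes with an unadjusted p under 0.05 in limma was 0 with quantile normalization, median centring, cyclic loess, the array number as a replicate block and the filter on dim rows, the last because Iyd is left out there, and was 0 to 0 over the fits leaving out 1 array; the cause was not tested for the others.

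Leaving out 1 array gave 0 to 1 rows called, the 1 without saline array 3. Genes with groups apart numbered 3 to 6, with 6 without saline array 1 and 5 without ethanol array 2, where all rows stood at 27.6% and 17.5%; fewer arrays separate more often by construction. Genes with a higher mean in ethanol numbered 3 to 5, the 3 without saline array 2. Bok ranged from -0.0077 to 0.088, Tspan18 from -0.024 to 0.25 and Cpne4 from -0.025 to 0.14, each below 0 without 1 saline array, which was array 2 for Bok and Tspan18 and array 3 for Cpne4. Deviations of equally numbered arrays correlated at 0.10, -0.06 and 0.04 over all rows. With 3 arrays a group, these values cannot show whether the labels' numbers pair the arrays. With the replicate block limma called 0 of the 10 genes, with the Iyd difference at -0.19 (unadjusted p = 0.0787 in limma). The SE of Tspan18 was 0.09 with the block and 0.17 without it.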
